A study of Mus musculus with 4 samples.

Results

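The genes of 10 secreted immune signals were followed through the 3 epithelial lineages of the mouse mammary gland, at puberty and in 2 phases of the adult estrous cycle. They were taken by gene symbol (Cxcl14, Il17b, Cxcl1, Cxcl2, Cxcl16, Csf1, Cx3cl1, Ccl2, Tslp and Il33), and all 10 were found among the 27998 genes listed for each library. Epithelial cells of FVB/NJ mice, an inbred strain, had been sorted as negative for Ter119, CD31 and CD45, the markers of red cells, endothelium and leukocytes, and as positive for CD24, and were then captured on the 10x Chromium platform, which reads the 3′ ends of transcripts in single cells. The puberty library was made from a pool of 6 mice at 5 weeks of age, and the estrus and diestrus libraries were each made from a pool of 2 mice at 10 weeks, staged by vaginal cytology. No treatment or engineered allele is given for any group. Each stage is therefore 1 library, in which stage, mouse pool and library cannot be told apart. Puberty was deposited as 2 count tables that share 5387 cell barcodes, 99.2% of those in the first table, and so hold the same cells; the first table was used.

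The epithelium of the gland has a basal layer of contractile myoepithelial cells and, inside it, luminal progenitors (LP) and hormone-sensing mature luminal cells (ML). Chemokines are small secreted proteins that draw leukocytes along a gradient; those of the CXC and CC families differ in the spacing of their first cysteines, and a few, such as Cx3cl1 and Cxcl16, are made as membrane proteins that proteases release. Interleukins and colony stimulating factors act on the survival, growth and activation of leukocytes, and Il33 and Tslp are known as alarm signals of barrier epithelia.

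The tables held 5428 cells at puberty, 2729 at estrus and 2439 at diestrus, with median counts per cell of 4103, 3236 and 3974. Cells were clustered in each library without use of the 10 genes, and clusters were named from fixed markers: basal-like (1142, 1282 and 1048 cells at puberty, estrus and diestrus), LP-like (1796, 481 and 578) and ML-like (1845, 757 and 683). Krt14 lay between 3556 and 6562 CPM (counts scaled to a common depth) in basal-like cells and between 14.9 and 107.1 in the other classes. Elf5, a transcription factor of LP cells, was highest in LP-like cells, and Prlr, the prolactin receptor, in ML-like cells in each library. These genes were among the markers used for naming, so their levels describe the classes and are no check of the names. Counts were summed per library and class, giving 9 sums, and levels are CPM scaled between the sums by the trimmed mean of M-values (TMM). Markers of leukocytes were near 0, with 8 genes adding up to between 0.288 and 3.98 CPM in any class and 1 count of Ptprc, which encodes CD45, over all 9 sums.

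Among the 10 genes each lineage had its own leading signal. Cxcl14 gave 64.8%, 82.1% and 69.7% of the counts of the 10 genes in basal-like cells at puberty, estrus and diestrus. Cxcl1 gave 54.6%, 63.7% and 57.9% in LP-like cells. Il33 gave 81.0%, 80.2% and 48.6% in ML-like cells. Lineages were compared over the 3 libraries with edgeR's quasi-likelihood test, library as a block and Benjamini-Hochberg adjustment over 11169 genes, at an adjusted p of 0.01. Of the 10 genes 9 could be tested, Tslp having too few counts. In basal-like against luminal cells (the mean of LP-like and ML-like) 4 were higher and 2 lower, where 39% of all tested genes were called (21.1% higher, 17.9% lower). In LP-like against ML-like cells 4 were higher and 1 was lower, where 27.5% of all tested genes were called (14% higher, 13.5% lower). The median log2 fold change of the 9 genes was 0.43 in the first comparison and 1.49 in the second, beside 0.02 and 0.00 over all tested genes. In 2 contrasts added after the data were seen, 3 were higher and 2 lower in basal-like than in LP-like cells (31.8% of all tested genes called, 16.7% higher and 15.2% lower), and 5 were higher and 1 lower in basal-like than in ML-like cells (42.1% called, 22.2% higher and 20% lower).

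**Figure D1:**
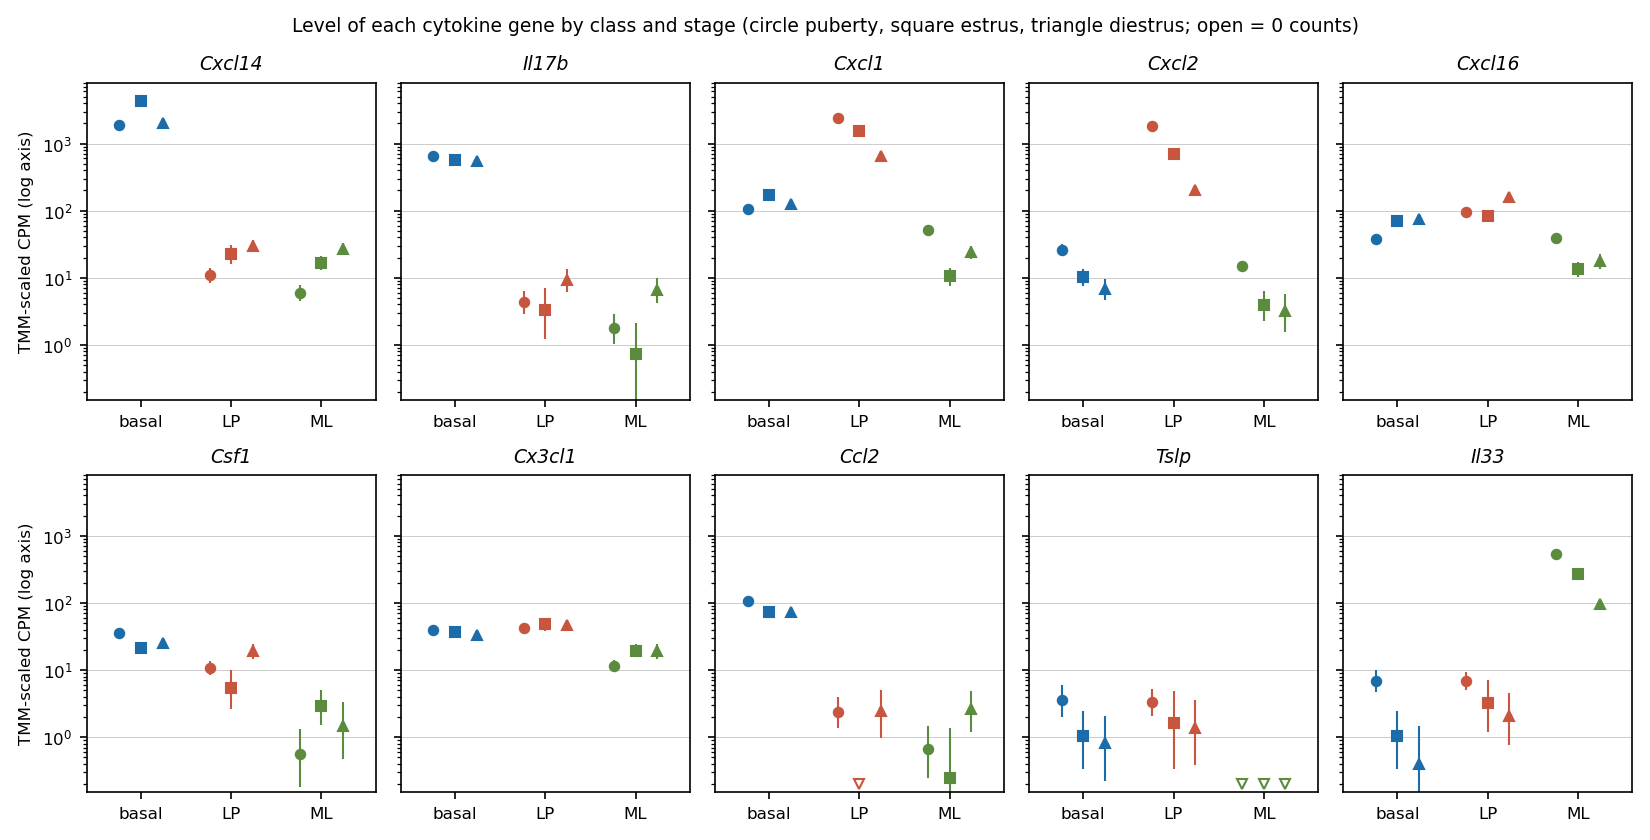
Level of each of the 10 genes (TMM-scaled CPM, log axis) in basal-like, LP-like and ML-like cells, with 1 point for each library, 95% counting intervals and open triangles for 0 counts. Cxcl14, Il17b and Ccl2 lie highest in basal-like cells, Cxcl1 and Cxcl2 in LP-like cells and Il33 in ML-like cells in each of the 3 libraries.

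Cxcl14, a CXC chemokine of epithelia, had the highest level of the 10 genes in the basal layer (chr13:56288643-56296551, minus strand, mm10). Its level in basal-like cells was 1885 CPM at puberty, 4350.0 at estrus and 2040.0 at diestrus. In LP-like cells it was 10.9, 22.4 and 29.8 CPM, and in ML-like cells 5.95, 16.6 and 27.1 CPM. The classes did not overlap, and the lowest basal-like value lay far above the highest luminal one. The log2 fold change of basal-like over luminal cells was 7.31 (SE 0.36, edgeR adjusted p = 1.065e-05). A count was present in 94.9% of basal-like cells at puberty, 99.5% at estrus and 98.5% at diestrus, and in 82.8%, 97.2% and 88.2% after each cell was thinned to 1500 counts. In LP-like and ML-like cells of the puberty library the thinned share was 0.732% and 0.493%.

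Il17b, a member of the interleukin 17 family (chr18:61684887-61692538, plus strand), had the same lineage as Cxcl14 with a flatter course over the stages. Basal-like cells held 661 CPM at puberty, 565 at estrus and 546 at diestrus, and the highest luminal value was 9.36 CPM, in LP-like cells at diestrus. The log2 fold change of basal-like over luminal cells was 7.31 (SE 0.37, edgeR adjusted p = 1.232e-05). A count was present in 66.8%, 64.7% and 75.6% of basal-like cells. In luminal cells the low counts of Cxcl14 and Il17b stood in a ratio like that in basal-like cells. In basal-like cells there were 2.85, 7.70 and 3.73 counts of Cxcl14 for each count of Il17b at puberty, estrus and diestrus. The ratio was 2.52, 6.83 and 3.19 in LP-like cells, and the 95% counting intervals of the classes overlapped within each library, as they did for ML-like cells (3.31, 22.7 and 4.09, the estrus value from 3 counts of Il17b). The source of these low luminal counts was not tested. In single basal-like cells of equal depth, Il17b was detected in 47.2% of cells with Cxcl14 and 51.8% of those without it at puberty, in 50.4% and 55.9% at estrus and in 54.1% and 50.4% at diestrus, and the order was not the same in all libraries.

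Ccl2, which draws monocytes, was also a basal-like transcript (chr11:82035571-82037453, plus strand). Basal-like cells held 107.5 CPM at puberty (448 counts), 73.5 at estrus (351 counts) and 73.7 at diestrus (366 counts). LP-like cells held 15, 0 and 7 counts, and ML-like cells 6, 1 and 9. Every basal-like value was above every luminal one. Basal-like cells exceeded LP-like cells 44.7-fold at puberty (95% counting interval 26.8 to 80.6) and 30.4-fold at diestrus (14.6 to 76.1). At estrus LP-like cells had 0 counts, and the basal-like level was 44.8-fold that of 3 counts. The lower 95% counting bound of the estrus ratio was 36.3-fold. The edgeR adjusted p of basal-like against luminal cells was 2.891e-06. At the depth of 1500 counts Ccl2 was present in 8.21%, 6.71% and 7.004% of basal-like cells, and in 0.225% of LP-like cells of the puberty library. The share with Ccl2 among basal-like cells with and without Cxcl1 was 15.7% and 7.45% at puberty, 9.14% and 6.24% at estrus and 11.5% and 6.25% at diestrus. It was higher in cells with Cxcl1 in all 3 libraries. The 95% binomial intervals of the pairs overlapped in each library, at puberty only at their ends (9.24 to 24.2 and 5.90 to 9.25). Overlap of intervals is no test of a difference. Fibroblasts also express Ccl2, and 6 of their markers added up to 249, 282 and 250.1 CPM in basal-like cells, of which Dcn gave 244, 272 and 245. The list came to at most 6.41 CPM in LP-like cells but to 188, 218 and 695.5 CPM in ML-like cells, where Ccl2 was near 0. Of the collagen genes that define fibroblasts, Col1a1 was at most 2.10 and Col1a2 at most 6.50 CPM in basal-like cells. The part of fibroblast RNA in the Ccl2 level was not tested.

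Csf1, the growth factor of macrophages (chr3:107741048-107760469, minus strand), was lowest in ML-like cells. Its level was 35.3, 21.2 and 25.4 CPM in basal-like cells, 10.9, 5.47 and 19.1 in LP-like cells and 0.562, 2.93 and 1.44 in ML-like cells, the last from 5, 12 and 5 counts. Each basal-like value was above each LP-like value, and each LP-like value above each ML-like value. Basal-like cells exceeded luminal cells by a log2 fold change of 2.73 (SE 0.41, edgeR adjusted p = 8.549e-04) and LP-like exceeded ML-like cells by 3.02 (SE 0.63, edgeR adjusted p = 0.00644). The second call was lost without the diestrus library (edgeR adjusted p = 0.0381) or the puberty library (0.0124). Basal-like against LP-like cells, a contrast added after the data were seen, gave 1.22 (edgeR adjusted p = 0.0582), which did not pass.

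**Figure D2:**
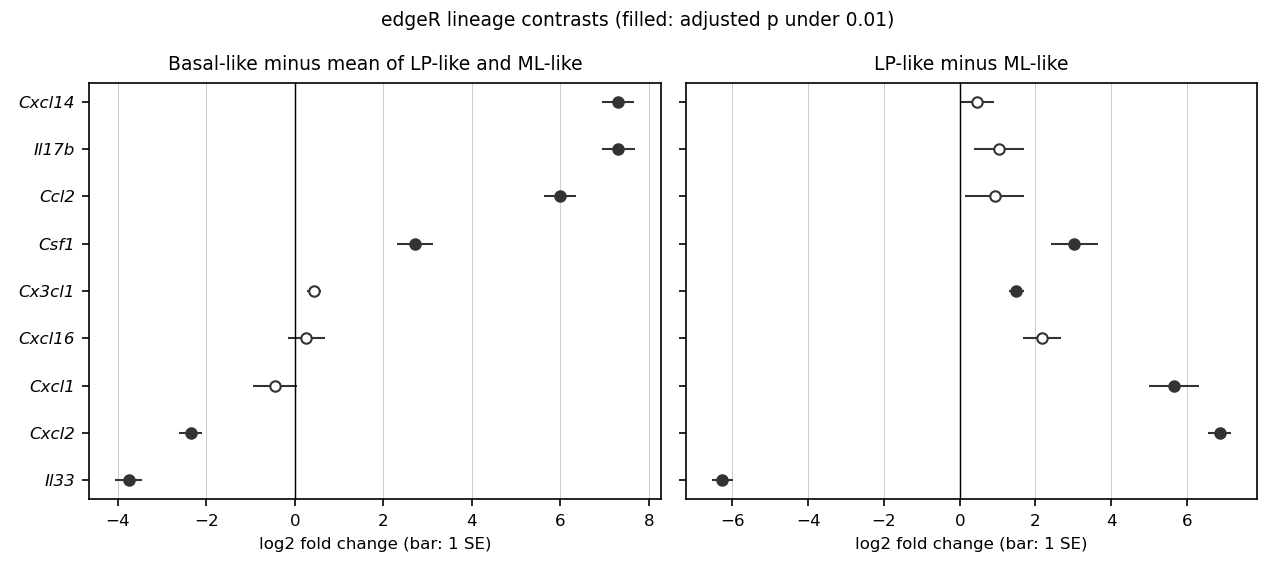
Log2 fold change of each tested gene in basal-like against luminal cells and in LP-like against ML-like cells, with standard errors, filled where the edgeR adjusted p was under 0.01. Cxcl14, Il17b, Ccl2 and Csf1 lie to the basal-like side, Cxcl2 and Il33 to the luminal side, and Il33 is the only one of the 9 called lower in LP-like than in ML-like cells.

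Cxcl1 and Cxcl2 are neutrophil chemokines that act through the same receptor, Cxcr2, and lie side by side on the plus strand of chromosome 5 (chr5:90891241-90893115 and chr5:90903871-90905938, mm10), with 10755 bases between the end of Cxcl1 and the start of Cxcl2. Their promoters are printed because both genes were highest in the same lineage. The stretches share a run of 14 bases, the longest they have in common, that opens with GGGAATTTCC, a word of the kind that the transcription factor NF-kappaB is known to bind. They run from 150 to 31 bases before the RefSeq start (GRCm38.p6, plus strand), chr5:90891095-90891214 for Cxcl1 and chr5:90903749-90903868 for Cxcl2, and these first 10 bases of the run are in capitals.
Cxcl1: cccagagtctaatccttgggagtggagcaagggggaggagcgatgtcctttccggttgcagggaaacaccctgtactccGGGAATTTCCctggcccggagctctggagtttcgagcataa
Cxcl2: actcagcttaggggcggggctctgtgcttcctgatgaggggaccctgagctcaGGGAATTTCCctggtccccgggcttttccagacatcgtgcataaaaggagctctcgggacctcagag

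The word lies at -71 to -62 in Cxcl1 and at -97 to -88 in Cxcl2, counted from the RefSeq start. The annotated gene starts given above are others: 26 bases lie between the Cxcl1 stretch and its gene start, and 2 for Cxcl2. Read position by position without gaps, the stretches have the same base at 30 of 120 places (25%). This reading sets the shared run out of line, so it does not measure how alike the stretches are. Searched on both strands, the word was in 29 of 32851 RefSeq promoter windows from 250 bases before to 50 after a start (0.0883%), which include Cxcl3, a neighbour of the same family. Of the 10 genes Cxcl14, Cxcl1, Cxcl2, Csf1, Cx3cl1 and Il33 had windows in the table; the word was chosen from Cxcl1 and Cxcl2 and was in none of the other 4. A word of these letters describes the sequence and is no measurement of binding.

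Cxcl1 was an LP-like transcript. Its level in LP-like cells was 2401 CPM at puberty, 1530.0 at estrus and 645 at diestrus. Basal-like cells held 105.1, 170.1 and 127 CPM, and ML-like cells 52.3, 10.5 and 23.9. The 3 lineages kept this order in each library with no overlap. LP-like exceeded ML-like cells by a log2 fold change of 5.67 (SE 0.66, edgeR adjusted p = 9.345e-04), a call lost without the diestrus (6.02, edgeR adjusted p = 0.0295) or the puberty library (5.90, 0.0115). Against LP-like cells alone basal-like cells were lower by a log2 fold change of -3.28 (SE 0.58, edgeR adjusted p = 0.00499, a contrast added after the data were seen). Against the mean of both luminal classes, which differ widely, the value was -0.45 (SE 0.50, edgeR adjusted p = 0.494). Unlike the luminal counts of Cxcl14, the basal-like counts of Cxcl1 did not have the LP-like ratio to Cxcl2. There were 4.02, 16.6 and 18.6 counts of Cxcl1 for each count of Cxcl2 in basal-like cells and 1.32, 2.17 and 3.22 in LP-like cells.

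Cxcl2 was more restricted to LP-like cells. They held 1823 CPM at puberty, 704 at estrus and 200.4 at diestrus, against 26.1, 10.3 and 6.85 in basal-like cells and 14.8, 3.91 and 3.17 in ML-like cells. The LP-like values did not overlap those of the other classes. The log2 fold change of LP-like over ML-like cells was 6.86 (SE 0.30, edgeR adjusted p = 1.072e-06), and basal-like cells were below luminal cells by -2.35 (SE 0.26, edgeR adjusted p = 1.194e-04), a call that the fit without a library block did not make (edgeR adjusted p = 0.0318). Near its 3′ end Cxcl2 shared 61 of 799 words of 50 bases (7.64%) with Cxcl3, its close relative. Reads from these words may not be told apart by sequence, so that the exact level is uncertain. Cxcl3 had 16 counts, all in LP-like cells at puberty.

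Cxcl2 was detected more often in LP-like cells that held Cxcl1 than in those that did not. At the depth of 1500 counts, 52.7% of LP-like cells with Cxcl1 at puberty (481 of 912) also held Cxcl2, against 6.24% of those without it. At estrus the shares were 31.7% (71 of 224) and 3.27%, and at diestrus 20.9% (41 of 196) and 3.49%. The order was the same in all 3 libraries. Cells of 1 library are not replicates, and the shares carry counting error only.

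**Figure D3:**
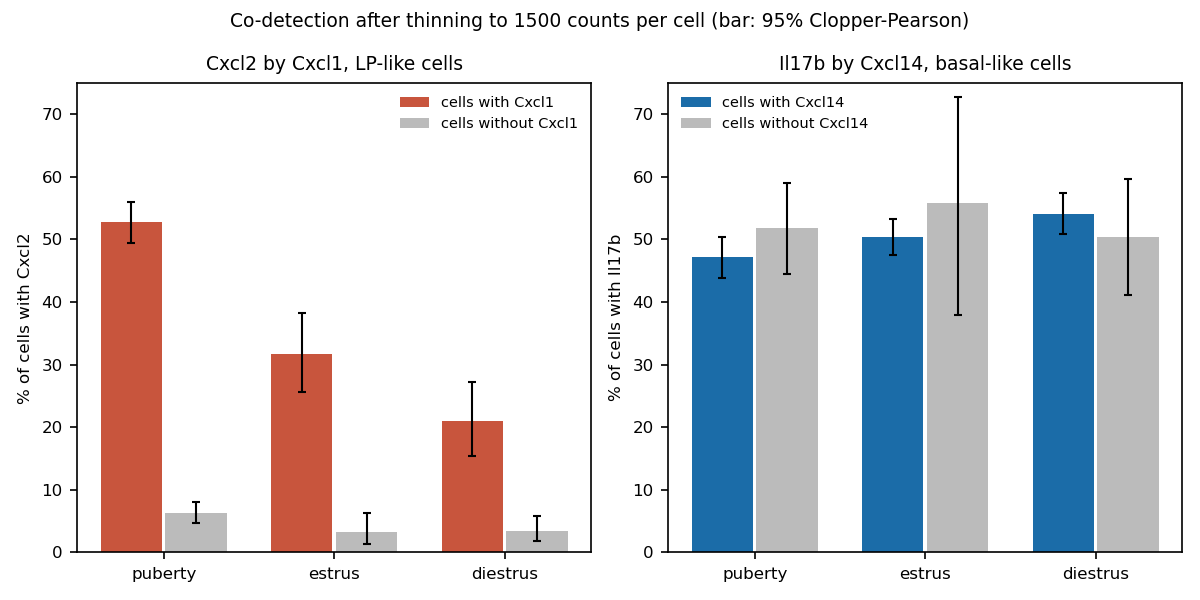
Share of cells (%) that held the second gene of a pair, among cells with and without the first, at 1500 counts per cell, with exact 95% binomial intervals for each library. Cxcl2 was found in 52.7%, 31.7% and 20.9% of LP-like cells with Cxcl1 and in under 7% of those without it, while for Il17b the intervals of basal-like cells with and without Cxcl14 overlap in each library.

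The transmembrane chemokines differed less between lineages. Cx3cl1, which is made as a membrane-bound adhesion molecule (chr8:94772009-94782427, plus strand), had 38.9, 37.5 and 33.0 CPM in basal-like cells, 42.5, 48.1 and 46.1 in LP-like cells and 11.6, 19.5 and 19.0 in ML-like cells. ML-like cells were lowest in every library, and the basal-like and LP-like ranges did not overlap but lay close. LP-like exceeded ML-like cells by a log2 fold change of 1.49 (SE 0.20, edgeR adjusted p = 8.977e-05), while basal-like against luminal cells (0.43, SE 0.16, edgeR adjusted p = 0.0418) did not pass. Cxcl16, a scavenger receptor as well as a chemokine (chr11:70453983-70459984, minus strand), had 95.8, 83.7 and 158 CPM in LP-like cells, 37.7, 71.2 and 74.9 in basal-like cells and 39.4, 13.4 and 17.6 in ML-like cells. The basal-like range (37.7 to 74.9) overlapped that of ML-like cells (13.4 to 39.4), and none of the 4 contrasts of Cxcl16 passed at 0.01 (LP-like against ML-like 2.16, SE 0.50, edgeR adjusted p = 0.0165). Annotated genes overlap Cxcl16 (Zmynd15), Il17b (Gm38165), Ccl2 (Gm17268) and Tslp (4930455D15Rik) on the other strand. The strand setting of the counting is not given in the sources used here, so that the levels of these 4 genes may include reads of their neighbours. Of the proteases that release both proteins, Adam10 was lower in LP-like than in ML-like cells (log2 fold change -2.42, SE 0.19, edgeR adjusted p = 1.484e-06), and Adam17 passed in neither comparison (-0.31, SE 0.22, edgeR adjusted p = 0.287 in LP-like against ML-like cells).

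Il33, a nuclear cytokine of the interleukin 1 family (chr19:29925114-29960718, plus strand), had the highest level of the 10 genes in ML-like cells. Outside the 10, Cxcl15 (286.1 CPM) and Mif (649.5 CPM) had ML-like class means near or above that of Il33 (304.4 CPM). ML-like cells held Il33 at 543 CPM at puberty (4834 counts), 274 at estrus (1123 counts) and 96.0 at diestrus (333 counts). Basal-like cells held 6.96, 1.05 and 0.403 CPM, and LP-like cells 6.89, 3.28 and 2.08. The lowest ML-like value was far above the highest value elsewhere. LP-like cells were below ML-like cells by a log2 fold change of -6.26 (SE 0.28, edgeR adjusted p = 1.189e-07), and basal-like cells were below luminal cells by -3.75 (SE 0.30, edgeR adjusted p = 3.914e-06). A count was present in 51.7%, 26.4% and 15.5% of ML-like cells, and in 34.1%, 16.5% and 9.12% at 1500 counts per cell. In the basal-like cells of the puberty library the thinned share was 0.361%.

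Tslp, which acts on dendritic cells and lymphocytes (chr18:32815383-32819797, plus strand), was near the limit of detection. Basal-like cells held 15, 5 and 4 counts and LP-like cells 21, 3 and 4, the highest being 3.598 CPM in basal-like cells at puberty. ML-like cells held 0 counts in all 3 libraries. It took no part in the tests above. At this depth 3 counts, the floor used for detection, come to 0.337, 0.733 and 0.865 CPM in ML-like cells of the puberty, estrus and diestrus libraries.

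Stages were compared within each lineage as a ratio of levels, log2 of CPM plus 1, with no test because each stage is 1 library; intervals are 95% and cover counting error only. A ratio of at least 2-fold with 10 CPM in either stage was taken as large. Of the 10 genes, 8 reached 10 CPM in basal-like cells, 6 in LP-like cells and 5 or 6 in ML-like cells. Between diestrus and estrus 1 of 8 was past 2-fold in basal-like cells (9.86% of all genes at that level), 3 of 6 in LP-like cells (12%) and 2 of 5 in ML-like cells (6.82%). Between puberty and estrus it was 2 of 8 in basal-like (12.1%), 1 of 6 in LP-like (9.23%) and 4 of 6 in ML-like cells (7.82%). Between puberty and diestrus it was 1 of 8 (7.93%), 3 of 6 (9.59%) and 5 of 6 (6.95%). These comparisons share libraries.

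In basal-like cells the stage differences were those of Cxcl14 and Cxcl2. Cxcl14 was lower at diestrus than at estrus by -1.09 on the log2 scale (-1.13 to -1.06) and lower at puberty than at estrus by -1.21 (-1.24 to -1.17). Cxcl2, at low levels, was higher at puberty than at estrus (1.27, 0.85 to 1.87) and diestrus (1.79). Il17b moved little, with -0.05 for diestrus against estrus (-0.13 to 0.03), and so did Ccl2, with 0.00 (-0.21 to 0.22). Krt14 and the immediate early genes were also highest at estrus, though Krt14 was lower at diestrus than at puberty. Krt14 was 4541 CPM at puberty, 6562 at estrus and 3556 at diestrus, and 12 immediate early and heat shock genes, which cells switch on within minutes of stress such as dissociation, added up to 6656, 24560.0 and 13890.0 CPM in basal-like cells. Their part in the Cxcl14 difference was not tested.

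In LP-like cells the neutrophil chemokines were ordered puberty, estrus, diestrus. Cxcl1 was lower at diestrus than at estrus by -1.25 (-1.33 to -1.16) and Cxcl2 by -1.81 (-1.96 to -1.67). Puberty exceeded estrus by 0.65 for Cxcl1 (0.59 to 0.71) and by 1.37 for Cxcl2 (1.29 to 1.46), and exceeded diestrus by 1.90 and 3.18. Cxcl2 thus differed more between the stages than Cxcl1. The thinned share of LP-like cells with Cxcl1 was 51.3% at puberty, 47.8% at estrus and 34.5% at diestrus, and with Cxcl2 30.1%, 16.8% and 9.49%. Csf1 had the opposite order in the adult, with 10 counts at estrus and 55 at diestrus (1.63, 0.82 to 2.94). The sum of the 8 LP markers, among them the milk protein genes Csn3 and Lalba, was in the same order as Cxcl1, at 51410.0, 36110.0 and 18430.0 CPM. Most of it came from Trf, Csn3, Lalba and Wfdc18 (class means of 19890, 6941, 3643 and 2761 CPM, beside 41.7 for Kit). The order of the sum need not hold for each marker. By contrast, the immediate early list was highest at estrus (14870.0, 33370.0 and 18440.0). Target and feedback genes of NF-kappaB had no common order: Nfkbia, which gave most of their summed level, was lowest at puberty (1566, 2674 and 2541 CPM), while Nfkb1 (107.0, 55.2 and 49.9 CPM) was highest there. Their part in the chemokine differences was not tested.

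In ML-like cells Il33 was lower at diestrus than at estrus by -1.50 (-1.70 to -1.34), and higher at puberty than at diestrus by 2.49. The make-up of the class differed between the libraries: at diestrus 283 and 62 of the 683 ML-like cells were in clusters led by Calca and by Wfdc12, at 19.1 and 15.3 CPM of Il33, and the other diestrus clusters held 134 and 382 CPM, where the estrus clusters held 127 to 739. The fibroblast list, which is Dcn in these cells, was 218 CPM at estrus and 695.5 CPM at diestrus. The part of the clusters in the Il33 difference was not tested. Cxcl1, at low levels, was higher at diestrus than at estrus by 1.12 (0.64 to 1.75) and higher at puberty than at estrus by 2.21. Cxcl16 was higher at puberty than at estrus by 1.49. Cxcl14 was lower at puberty than at diestrus by -2.02, but this value became 0.14 once doublet candidates, barcodes scored as likely to hold more than 1 cell, were left out. The 8 ML markers added up to 9931 CPM at puberty, 8440.0 at estrus and 6715 at diestrus, a smaller difference than that of Il33.

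Within a lineage the levels also varied between clusters, given here in CPM of the cluster without TMM scaling. Cxcl14 ranged over the basal-like clusters from 911.6 to 2977 CPM at puberty, 1410.0 to 6329 at estrus and 1106 to 4406 at diestrus. Ccl2 ranged from 28.8 to 196, from 50.04 to 276 and from 54.9 to 102. Both ranges overlapped between the stages. Cxcl1 over the LP-like clusters ran from 1309 to 2994 CPM at puberty, 736.5 to 1833 at estrus and 399 to 995 at diestrus, so that the clusters of puberty and diestrus did not overlap. Il33 over the ML-like clusters ran from 275 to 1001, from 127 to 739 and from 15.3 to 382. At estrus and diestrus the highest cluster was led by Upk3a, a uroplakin gene, with 739 CPM in 115 cells and 382 CPM in 86 cells. The lowest were the diestrus clusters led by Calca (19.1 CPM, 283 cells) and by Wfdc12 and Areg (15.3 CPM, 62 cells), whose counting intervals overlapped.

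**Figure D4:**
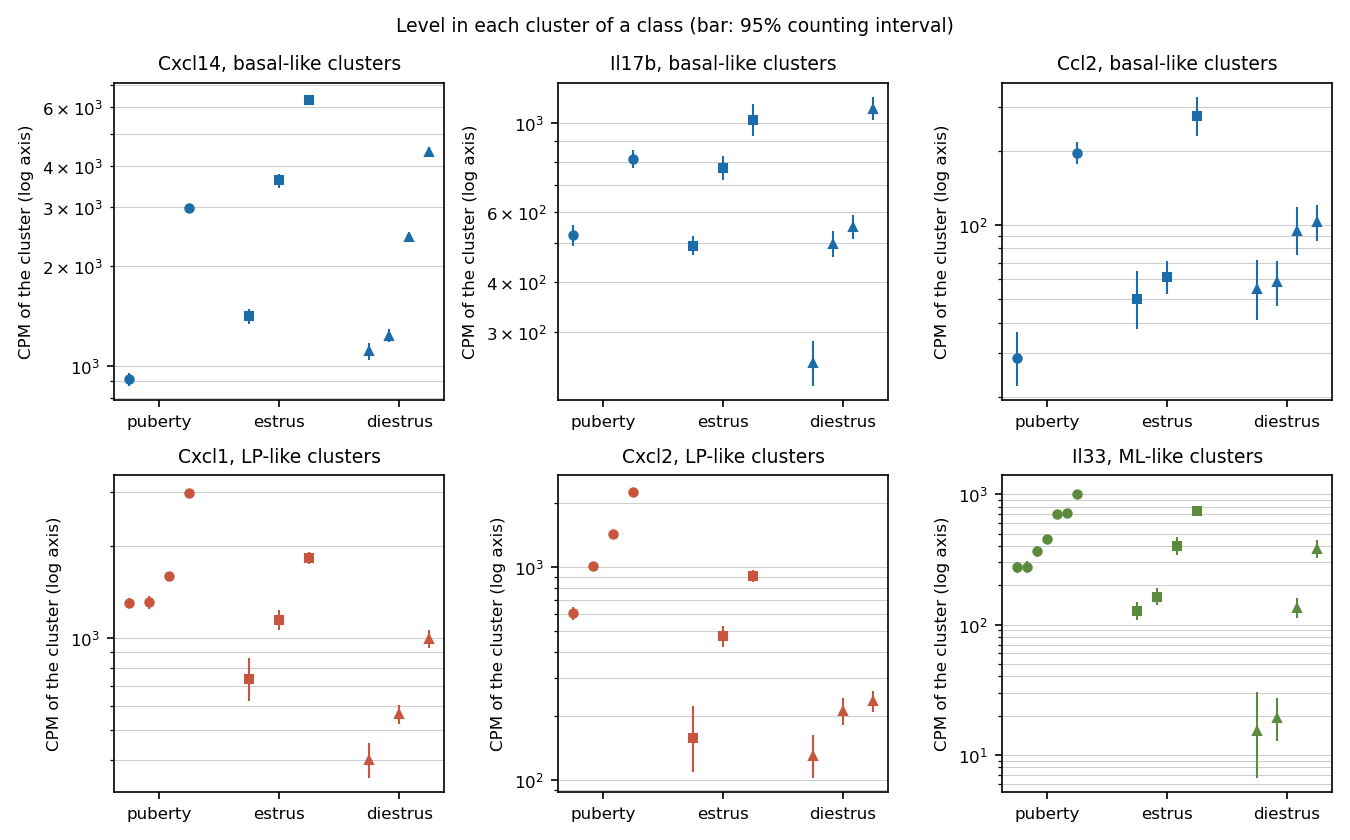
Level (CPM of the cluster without TMM scaling, log axis) of Cxcl14, Il17b and Ccl2 in basal-like clusters, Cxcl1 and Cxcl2 in LP-like clusters and Il33 in ML-like clusters, with 1 point and a 95% counting interval for each cluster in each library. The Cxcl1 points of puberty (1309 to 2994) lie above all those of diestrus (399 to 995), while the Cxcl14 points of the 3 stages overlap.

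Most receptors for the 10 ligands were at or near 0 in the epithelium. The list also holds Ackr3 and Cxcr4, which bind Cxcl12, a ligand outside the 10. Of 13 listed genes 5 had enough counts for the test, and Cxcr2, Cxcr6, Csf1r, Cx3cr1, Ccr2, Il7r and Il1rl1, known from leukocytes, had class means of at most 0.337 CPM. Il17rb, the receptor of Il17b, was too low to test, with class means of 1.62 CPM in basal-like, 0.525 in LP-like and 2.25 in ML-like cells (SD 0.591, 0.548 and 1.22, n = 3). Il17ra, also on the list, had class means of 9.42, 7.64 and 8.56 CPM (SD 4.30, 2.20 and 0.216, n = 3). It was called neither in basal-like against luminal nor in LP-like against ML-like cells. Against luminal cells 3 of the 5 were higher in basal-like cells and 0 were lower. In LP-like against ML-like cells 3 were higher (Ackr3, Cxcr4 and Il1rap) and 1 was lower (Crlf2). Over all tested genes 39% were called in the first of these comparisons and 27.5% in the second. Ackr3, an atypical chemokine receptor that binds Cxcl12, was 54.2, 153 and 59.6 CPM in basal-like cells and 0.786, 0.244 and 0.577 in ML-like cells, and LP-like cells lay between at 14.7, 61.8 and 33.6. The log2 fold change of basal-like over luminal cells was 4.13 (SE 0.27, edgeR adjusted p = 1.483e-06). Crlf2, the receptor chain of Tslp, was found in all lineages, at 39.8, 34.6 and 35.4 CPM in basal-like cells, 17.3, 13.1 and 12.5 in LP-like cells and 30.9, 31.0 and 26.8 in ML-like cells.

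Among 46 other cytokine and chemokine genes 18 were tested. In basal-like against luminal cells 6 were higher and 8 lower, where 39% of all tested genes were called (21.1% higher, 17.9% lower). In LP-like against ML-like cells 4 were higher and 4 lower, where 27.5% of all tested genes were called (14% higher, 13.5% lower). The basal layer held Cxcl12, a chemokine of stem and B cells, at 132, 112 and 68.9 CPM (log2 fold change over luminal cells 6.14, SE 0.19, edgeR adjusted p = 6.776e-10). LP-like cells held Csf3, the growth factor of neutrophils, at 883, 213 and 190.0 CPM, beside at most 29.3 CPM elsewhere. The log2 fold change of LP-like over ML-like cells was 4.71 for Csf3 (SE 0.33, edgeR adjusted p = 3.624e-05), 3.49 for Lif and 3.22 for Tnf. ML-like cells held Cxcl15, another CXC chemokine, at 449, 116 and 293 CPM and Cxcl17 at 186, 100.4 and 87.7 CPM, with log2 fold changes of LP-like against ML-like cells of -6.43 and -3.46. Ccl5 stood out by library in ML-like cells, with 154 CPM at puberty, 0.488 at estrus and 29.4 at diestrus. Mif, made by most cells, passed in neither comparison (0.18, edgeR adjusted p = 0.162 in basal-like against luminal cells), and pseudogene copies may share its reads.

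Of 10 target and feedback genes of NF-kappaB, which include its own inhibitors, 5 were higher in LP-like than in ML-like cells and 0 were lower. Over all tested genes 14% were higher and 13.5% lower in that comparison. The inhibitor gene Nfkbia had 1566, 2674 and 2541 CPM in LP-like cells and 559, 499 and 605.5 in ML-like cells (log2 fold change 1.93, SE 0.37, edgeR adjusted p = 0.00778), and Tnfaip3 had a log2 fold change of 3.88 (SE 0.25, edgeR adjusted p = 3.051e-07). In basal-like against luminal cells 2 were higher and 2 lower, near the 21.1% and 17.9% of all tested genes. Icam1, an adhesion molecule, was higher in basal-like cells (3.32, SE 0.38, edgeR adjusted p = 5.707e-04). Of 12 immediate early and heat shock genes 4 were higher in LP-like than in ML-like cells and 0 lower. Against luminal cells 1 was higher and 4 lower in basal-like cells. Taken in either direction, both totals are near the shares of all tested genes called, 27.5% and 39%. By direction, the 4 of 12 higher in LP-like cells stand beside 14% of all tested genes. The 4 of 12 lower in basal-like cells stand beside 17.9%. The part of either list in the lineage differences was not tested.

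**Figure D5:**
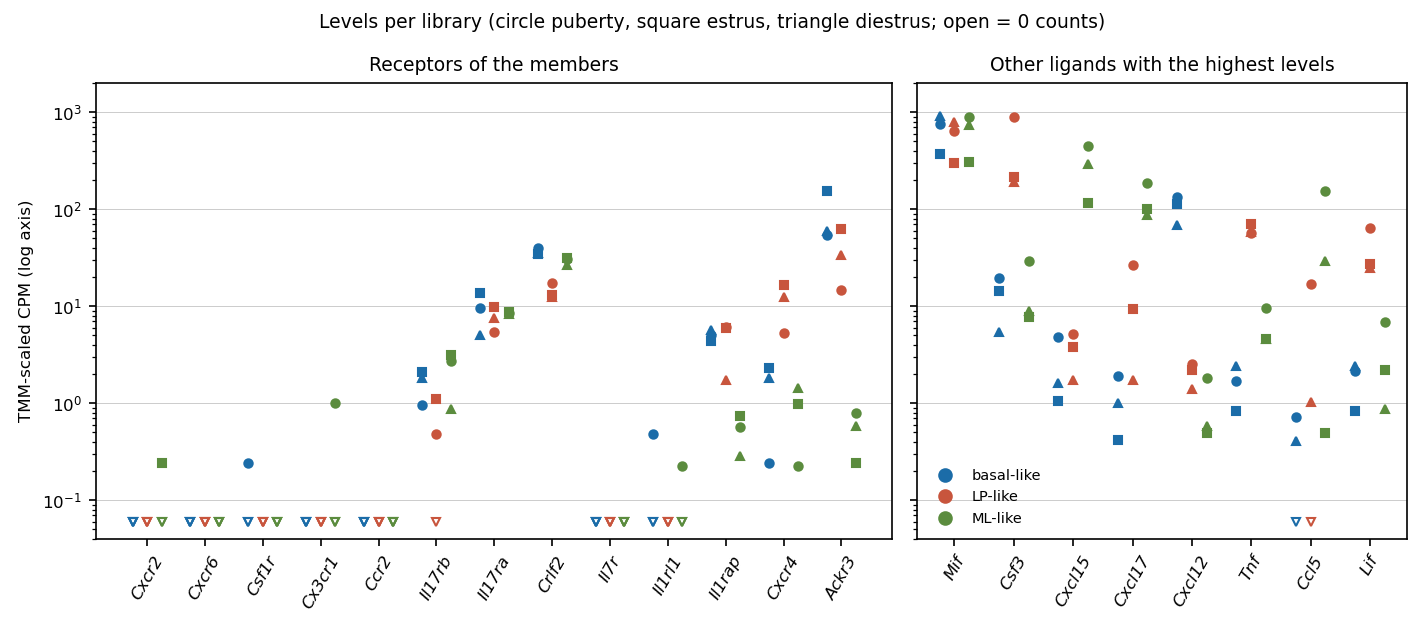
Level (TMM-scaled CPM, log axis) of the 13 receptors and of the 8 other ligands with the highest levels in basal-like, LP-like and ML-like cells, with 1 point for each library and open triangles for 0 counts. Csf3, Tnf and Lif lie highest in LP-like cells, Cxcl15, Cxcl17 and Ccl5 in ML-like cells, and Cxcl12 and Ackr3 in basal-like cells.

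The genes with the most similar levels were named over the 9 sums of counts, out of 6080 that reached a mean of 20 CPM in any lineage, by Pearson's r on the log2 scale. For Cxcl14 they were Cnn1 (r = 0.997), Myh11 and Sparc, genes of contractile cells and matrix, and for Il17b they were Pdpn (0.997), Lmo1 and Krt5. For Ccl2 they were Fscn1 (0.996), Col14a1 and Aebp1. For Cxcl1 they were Cp (0.988), which encodes ceruloplasmin, Cst3 and Cd81, and for Cxcl2 Ppp2ca (0.993), Cldn1 and Timd2. For Il33 they were Ido1 (0.989), an enzyme that breaks down tryptophan, Fgb and Gpx3. The values were lower for Csf1 (Sgpp1, 0.968), Cx3cl1 (Ppp2r3a, 0.964) and Cxcl16 (Cdk6, 0.938). Many genes were as close: 178 had an r of at least 0.95 with Cxcl14, 230 with Il17b, 189 with Ccl2, 51 with Cxcl1, 80 with Cxcl2 and 72 with Il33. The 9 sums share 3 libraries and 3 lineages, so that these values describe likeness over them and carry no p.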

How the data were processed

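The authors sequenced sorted mammary epithelial cells as 10x Chromium 3′ libraries and deposited count tables (whole-number counts of molecules per gene and cell barcode, mm10) made with Cell Ranger 2.0, as the submitters' processing notes and the study's methods give it. Counts were used as deposited. Doublet candidates were kept and left out in an alternative. Cells of each library were clustered (2000 variable genes without the 10 genes and their companion lists, 30 principal components, Leiden resolution 1.0; leidenalg 0.10.2), and a cluster of at least 20 cells was named when at least 4 of 8 fixed markers of 1 lineage were detected. The 645, 209 and 130 cells left unnamed at puberty, estrus and diestrus entered no comparison; 315 of them at puberty (5.80%) had ML markers but conflicting leading genes and were added to the ML-like class in an alternative. Counts were summed per library and class; totals per library ran from 10962454 to 25365324. Libraries other than the puberty tables shared 13 to 24 barcodes. Lineages were tested with edgeR 4.0.16 in R 4.3.3. The p-values measure the spread between 3 libraries, each a pool of mice, with stages used as the replicates of a lineage. Alternatives were DESeq2 1.42.0, other size factors, no filter on low counts, no library block, the other puberty table, other class rules, other pseudocounts and levels, and each library left out.

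The 10 genes and the lists were chosen with earlier results of these data known. All 10 genes were named throughout, the 8 other ligands with the highest class mean could be named, and other lists were given as counts with examples. On simulated counts the test recovered 94.5% of 200 genes changed 4-fold in basal-like against luminal cells, with 2 false calls among 11169 genes. The simulated counts had a fixed spread, no differences between libraries or stages and far fewer changed genes than were called here. These figures therefore do not give the recovery or the false calls in the data. Positions are from the GENCODE vM21 annotation and promoters from a RefSeq table (GRCm38.p6). Intervals are exact 95% Poisson or binomial intervals and cover counting error only, and a ratio to a class at 0 counts is given against the level of 3 counts.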

Additional observations from a re-analysis of the deposited data

Results flagged for a closer look

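Small clusters that entered no class held more Ccl2, and in the adult libraries more Cxcl1, than any class of their library. Ccl2 was at 866.3 CPM in puberty cluster 17 (13 cells, 39 counts, 95% counting interval 616 to 1184), at 703.9 CPM in estrus cluster 14 (12 cells, 26 counts, 460 to 1031) and at 407.0 CPM in diestrus cluster 16 (6 cells, 7 counts, 164 to 839), where the highest class, basal-like, held 107.5, 73.5 and 73.7 CPM. Cxcl1 was at 5144 CPM in estrus cluster 14 (190 counts) and at 1512 CPM in diestrus cluster 16 (26 counts), above the LP-like level of 1530.0 and 645 CPM. Each of these clusters was led by Col3a1 and Lum, had counts of 5 of 6 fibroblast markers in at least 25% of its cells and had no basal or LP marker there; all were under the minimum of 20 cells.

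Cxcl1 differed in direction between the luminal classes. From estrus to diestrus its log2 ratio was 1.12 in ML-like cells (1.1161, from 43 to 83 counts) and -1.25 in LP-like cells (-1.2463, from 2799 to 1859 counts), with 1 library for each stage. The ML-like value was 0.90, under 2-fold, with a pseudocount of 5 CPM, and the thinned shares of ML-like cells with Cxcl1 overlapped (1.75%, 0.937 to 2.98, at estrus and 2.84%, 1.72 to 4.40, at diestrus). The difference between the classes was not tested.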

How the results depend on the processing

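No paired analysis was possible because, for the stages, the estrus and diestrus labels carry no replicate number and the 2 puberty tables hold the same cells; the lineage fits had library as a block. Of 126 alternative values of the tested genes in basal-like against luminal cells 120 kept direction and side of the threshold, and of 126 in LP-like against ML-like cells 113 did. The cause of the changes below was not tested. In basal-like against luminal cells Cxcl1 turned to 0.082 without the puberty library (edgeR adjusted p = 0.921) and Cxcl16 to -0.17 without the estrus library (0.821), neither called; with 1 library left out they ranged from -0.80 to 0.082 and from -0.17 to 0.74, Cxcl16 being called without the puberty library. Without the library block 1197 genes were lower in basal-like cells (1997 with it), of the 10 genes 1 was lower in place of 2, and in LP-like against ML-like cells 963 genes were higher (1559) and 762 lower (1509). With 1 library left out, genes higher in basal-like cells numbered 1724 to 1961 (2356 with all) and genes lower 1268 to 1532, and genes higher in LP-like cells 982 to 1192 and lower 866 to 1095. Of the 10 genes 4 to 5 were then higher and 2 lower in basal-like cells, and 3 to 5 higher and 1 lower in LP-like cells. Cxcl16 passed in LP-like against ML-like cells without the puberty library (2.93, edgeR adjusted p = 5.51e-06). Without a filter on low counts Tslp passed in basal-like against luminal cells (edgeR adjusted p = 0.00388) through its 0 counts in ML-like cells; against LP-like cells it did not (-0.27, edgeR adjusted p = 0.803).

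Of 198 alternative stage ratios of the 22 values past 2-fold, 168 stayed within the counting interval, 29 were outside it in the same direction and 1 turned, Cxcl14 in ML-like cells at puberty against diestrus (0.14 with doublet candidates left out, an alternative chosen after seeing the data). Values at least 2-fold higher at diestrus than estrus numbered 2, and 1 in plain CPM, 1 with a pseudocount of 5 CPM, 0 at a minimum of 50 CPM and 4 in cells without 3 or more cell cycle genes. At puberty against estrus 5 were higher (2 at 50 CPM) and 2 lower (4 in plain CPM, 1 with a pseudocount of 5, 1 at 50 CPM, 4 in cells with at least 1000 genes, 1 with doublet candidates left out). At puberty against diestrus 7 were higher (4 at 50 CPM) and 2 lower (5 in plain CPM, 0 at 50 CPM, 1 with classes from marker scores, 4 in cells with at least 1000 genes, 0 with doublet candidates left out). At 1500 counts per cell, the same class held the highest share of cells with a count in all 3 libraries for 9 of the 10 genes. Among these is Tslp, through only 3, 2 and 2 LP-like cells at puberty, estrus and diestrus. Without thinning its highest share at puberty was in basal-like cells (10 of 1142, against 6 of 1796 LP-like cells). Depth limits Tslp, and Csf1 and Ccl2 outside basal-like cells.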
